A study of Mus musculus with 75 samples.

Results

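The genes described here are 10 genes of metal binding and iron traffic, Mt1, Mt2, Fth1, Ftl1, Tfrc, Slc40a1, Slc11a2, Trf, Cp, and Ireb2. They were taken by gene symbol from the 32245 genes of the raw count table, and all 10 were present and passed the filter on low counts in every comparison. The counts came from whole kidneys of adult mice 3 days after unilateral ureteral obstruction (UUO), a surgical model of chronic kidney disease in which the unobstructed contralateral (CL) kidney serves as the control. The 75 libraries formed 3 arms of 4 groups. In the ABTAA arm, mice received human IgG Fc as control (IgG, 8 CL and 8 UUO libraries) or ABTAA (labelled ABT, 7 and 7), an antibody that binds ANGPT2 and thereby activates the endothelial receptor TIE2. In the Veptp arm, VeptpKO mice (labelled VeKO, 6 CL and 8 UUO) lacked Veptp after tamoxifen in cells that express Cdh5-CreERT2, which is active in endothelium, and their controls (VeptpWT, labelled VeWT, 7 and 8) were noninduced Veptp wt/lox mice that carried the same transgene. The study's methods name fewer VeptpWT mice than there are UUO libraries with that label. In the Pdgfb arm, PdgfbKO mice (labelled PbKO, 4 and 4) were induced with tamoxifen through Actb-CreERT2, which is active throughout the body, and their controls (PdgfbWT, labelled PbWT, 4 and 4) were Cre-negative Pdgfb wt/lox or lox/lox mice. Mice were of mixed genetic background in the knockout arms, and of both sexes, which the labels do not give. Kidneys of sham-operated PdgfbWT mice stand among the PdgfbWT CL libraries without a mark. Comparisons with the PdgfbWT CL group are thus not all with kidneys opposite an obstructed one.

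Totals ranged from 172827 to 2341800 counts per library, with a median of 757897. Kidney epithelial markers were present in every library, and their summed level was lower in UUO than in CL kidneys of the IgG mice (3925 to 6487 against 8321 to 11710 CPM, counts scaled to a common library total). The targeted genes did not follow the labels throughout. Ptprb, which encodes VEPTP, ranged from 26.2 to 93.6 CPM in VeptpWT UUO and from 12.7 to 66.3 CPM in VeptpKO UUO libraries, and Pdgfb in CL kidneys ranged from 4.45 to 19.9 CPM in libraries labelled PdgfbWT and from 16.7 to 25.0 CPM in libraries labelled PdgfbKO. In UUO kidneys Pdgfb ranged from 43.0 to 57.5 CPM in PdgfbWT and from 33.5 to 40.6 CPM in PdgfbKO libraries, without overlap (log2 difference -0.47, adjusted p = 0.125 by edgeR), and its response to UUO was lower in PdgfbKO mice (-1.26, adjusted p = 0.0460). In the Veptp arm, 8 libraries carried numbers in their names that had opposite genotypes in the CL and the UUO kidney, and the VeptpKO CL library of replicate 2 had 244.5 CPM of the injury marker Havcr1, whose median in that group was 9.20 CPM. Results of the Veptp arm are therefore given with and without these libraries where a call changed. Library names had 2 forms, without a separator between letter and number (45 libraries, all of the Pdgfb arm included) and with the separator _ (30 libraries), and several of the 10 genes differed between these forms, as described below.

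Metallothioneins are small cysteine-rich proteins that bind zinc and copper, and their genes are classic targets of the zinc-sensing factor MTF1, which acts through metal response elements in their promoters. Iron enters most cells as transferrin (Trf) through the transferrin receptor (Tfrc), passes out of the endosome through the divalent metal transporter (Slc11a2), is stored in ferritin made of heavy (Fth1) and light (Ftl1) chains, and leaves through ferroportin (Slc40a1), with ceruloplasmin (Cp) oxidizing the iron that leaves. Iron regulatory proteins, of which Ireb2 encodes IRP2, bind hairpins called iron-responsive elements in these mRNAs, blocking translation when the hairpin lies in the 5′ UTR and protecting the mRNA when it lies in the 3′ UTR. In the kidney, filtered transferrin-bound iron is recovered by the tubule.

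The sequences that set these regulatory classes apart are shown first. Iron-responsive elements were searched in UTRs of GRCm38 as a C, 5 bases, the loop CAGTGN, and 5 bases that pair with the first 5, G to T pairs allowed. Of 21901 coding genes, 31 (0.142%) held such a match in a 5′ UTR and 129 (0.589%) in a 3′ UTR. Among the 10 genes, 4 had a match. Fth1 held it in the 5′ UTR at chr19:9982732-9982760 (plus strand), Ftl1 in the 5′ UTR at chr7:45459779-45459807 (minus strand), and Slc40a1 in the 5′ UTR at chr1:45925465-45925493 (minus strand). Tfrc held 4 in its 3′ UTR, at chr16:32631219-32631247, chr16:32631598-32631626, chr16:32631663-32631691, and chr16:32631710-32631738 (plus strand). The search is by letters only and misses hairpins of another shape. Capitals mark the unpaired C and the loop, and sequences are 5′ to 3′ with T for U.
Fth1: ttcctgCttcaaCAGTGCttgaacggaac
Ftl1: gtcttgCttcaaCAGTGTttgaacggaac
Slc40a1: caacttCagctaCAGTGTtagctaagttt
Tfrc site 1: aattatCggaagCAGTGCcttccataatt
Tfrc site 2: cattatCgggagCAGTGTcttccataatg
Tfrc site 3: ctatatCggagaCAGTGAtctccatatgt
Tfrc site 4: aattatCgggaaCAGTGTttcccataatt

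The promoters of Mt1 and Mt2 are shown because the metal response elements of this family lie there. Their windows of 300 bases, from 250 before to 50 after the RefSeq start, are chr8:94178839-94179138 for Mt1 and chr8:94172368-94172667 for Mt2 (GRCm38.p6, plus strand). Capitals mark the element's core, searched as TGCACNC or TGCGCNC on both strands. Mt1 held 3 cores and Mt2 held 4, while 25.7% of all 32807 promoters held at least 1, 1.97% at least 3, and 0.518% at least 4. Of the 10 genes, 7 had a promoter in the RefSeq table (10 windows), and beside Mt1 and Mt2 a window of Tfrc held 2 overlapping cores. The Mt1 cores at 2 to 8 and at 20 to 26 bases lie after the start used, and elements beyond the windows were not searched. A match to these letters is not evidence of a bound site.
Mt1: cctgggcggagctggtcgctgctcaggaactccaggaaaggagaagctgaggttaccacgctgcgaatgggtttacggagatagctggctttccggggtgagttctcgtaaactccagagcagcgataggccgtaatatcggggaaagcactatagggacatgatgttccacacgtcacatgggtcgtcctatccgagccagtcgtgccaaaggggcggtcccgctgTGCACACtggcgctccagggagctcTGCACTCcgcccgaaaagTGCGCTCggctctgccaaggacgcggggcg
Mt2: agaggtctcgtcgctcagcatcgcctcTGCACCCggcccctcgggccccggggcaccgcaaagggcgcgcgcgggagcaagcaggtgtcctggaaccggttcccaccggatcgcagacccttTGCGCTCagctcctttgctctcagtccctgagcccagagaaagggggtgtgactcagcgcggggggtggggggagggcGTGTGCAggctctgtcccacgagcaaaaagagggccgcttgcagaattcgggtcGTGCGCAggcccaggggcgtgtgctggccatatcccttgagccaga

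Of the 10 genes, 3 changed with obstruction in the control mice of all 3 arms. Cp and Trf were higher and Tfrc was lower in UUO than in CL kidneys of IgG, VeptpWT, and PdgfbWT mice, while Mt1 and Ireb2 passed the test in no comparison. Of the 9554 genes tested in all 3 arms, 7.73% were higher and 7.92% lower in all 3 groups of control mice. A gene was taken as changed when its adjusted p from the edgeR quasi-likelihood test, adjusted over all genes tested in the arm, was under 0.05. By this test 4 of the 10 genes were higher and 1 was lower in IgG UUO kidneys, where 16.3% of all genes tested were higher and 18.2% lower. In VeptpWT mice 2 were higher and 1 was lower (10.0% and 8.38% of all genes), and in PdgfbWT mice 4 were higher and 4 lower (17.9% and 19.4% of all genes). In the treated and knockout mice, 2 were higher and 1 lower with ABTAA (12.6% and 12.5% of all genes), 1 was higher and 1 lower in VeptpKO (4.47% and 3.47%), and 2 were higher and none lower in PdgfbKO mice (3.94% and 2.42%). The median log2 fold change of the 10 genes lay between 0.03 in IgG and 0.20 in VeptpWT mice, beside medians of all genes between -0.01 and 0.04 in the 6 comparisons of UUO with CL kidneys.

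**Figure D1:**
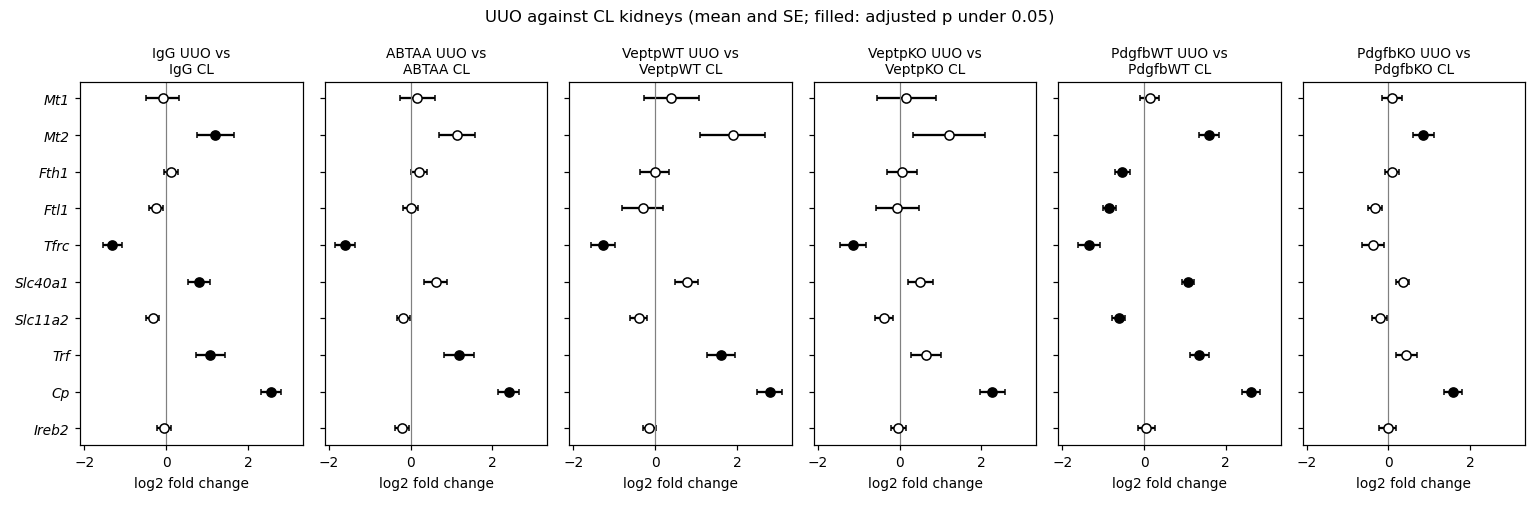
Log2 fold change between UUO and CL kidneys (horizontal axis, with its standard error) of each of the 10 genes (vertical axis) in the 6 groups of mice, with filled points where the adjusted p was under 0.05. Cp lay furthest to the right in every panel, at 1.59 to 2.80, and Tfrc lay to the left of 0 in every panel, with an open point in PdgfbKO mice.

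Cp (chr3:19957054-20009145, plus strand), the copper-containing ferroxidase, had the largest change of the 10 genes in each of the 6 comparisons. It ranged from 44.8 to 94.6 CPM (median 71.9) in IgG CL and from 225 to 594 CPM (median 429.9) in IgG UUO kidneys, and the groups did not overlap. The log2 fold change was 2.56 ± 0.24 (SE, adjusted p = 4.96e-10), a 5.92-fold difference. In the VeptpWT mice it ranged from 32.0 to 76.5 CPM (median 41.9) in CL and from 242 to 449 CPM (median 358) in UUO kidneys, again without overlap, and the log2 fold change reached 2.80 ± 0.30 (SE, adjusted p = 2.78e-07). The separation held within either form of library name, at 2.21 without and 3.39 with a separator. The same values were 1.97 and 2.79 with ABTAA, and 1.60 (adjusted p = 0.429, with 2 CL libraries) and 2.7 in VeptpKO mice. In VeptpKO mice the change was 2.27 ± 0.31 (SE, adjusted p = 3.07e-05), and 2.13 (adjusted p = 0.0133) without the 8 libraries whose numbers carried opposite genotypes. With ABTAA it was 2.40 ± 0.26 (SE, adjusted p = 1.04e-08), where CL kidneys reached 135 CPM in replicate 5 and the lowest UUO kidney had 189.9 CPM.

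Tfrc (chr16:32608920-32632794, plus strand), whose product takes up transferrin-bound iron, was lower in UUO kidneys. It ranged from 34.5 to 208 CPM (median 140.7) in IgG CL and from 18.4 to 74.9 CPM (median 57.6) in IgG UUO kidneys, and the ranges overlapped through a CL library that held 10 counts of it. The log2 fold change was -1.32 ± 0.23 (SE, adjusted p = 2.35e-05), so that the UUO level was 0.400 of the CL level. With ABTAA the groups did not overlap, at 77.4 to 204 CPM (median 150.5) in CL and 38.7 to 73.1 CPM (median 44.1) in UUO kidneys, and Tfrc changed by -1.61 ± 0.24 (SE, adjusted p = 5.41e-06). In VeptpWT mice the change was -1.26 ± 0.30 (SE, adjusted p = 0.0025), from 59.7 to 152 CPM (median 94.6) in CL to 15.1 to 68.5 CPM (median 36.6) in UUO kidneys. In VeptpKO mice it was -1.13 ± 0.31 (SE, adjusted p = 0.021), which rose to an adjusted p of 0.175 without the 8 libraries of opposite genotype, at a change of -1.02, and to at most 0.0521 without UUO replicate 6 or 7. Without the VeptpKO CL library of replicate 2 it was -0.99 (adjusted p = 0.0449).

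Trf (chr9:103204001-103230444, minus strand), the plasma iron carrier made mainly by liver, was low in CL kidneys and higher in UUO kidneys. In IgG mice it ranged from 13.8 to 119.5 CPM (median 45.6) in CL and from 66.4 to 152.5 CPM (median 96.7) in UUO kidneys. A single CL library, replicate 5, lay within the UUO range. The log2 fold change was 1.08 ± 0.36 (SE, adjusted p = 0.0178). In VeptpWT mice, the ranges were 20.6 to 59.0 CPM (median 28.1) in CL and 46.5 to 157 CPM (median 114) in UUO kidneys, with a change of 1.62 ± 0.34 (SE, adjusted p = 0.0010). With ABTAA the change was 1.18 ± 0.37 (SE, adjusted p = 0.0169), which became 1.83 without CL replicate 5, a library at 181 CPM among 22.7 to 39.4 CPM, and had an adjusted p of 0.0651 without UUO replicate 5. In VeptpKO mice the log2 difference was 0.65 ± 0.36 (SE, adjusted p = 0.331), and with the level of Xist as a covariate, since sexes were mixed and unlabelled, it was 0.92 (adjusted p = 0.0189). With the same covariate Trf had 1.34 (adjusted p = 0.000195) in VeptpWT mice, and Mt2, described below, had 1.145 (adjusted p = 0.303) in VeptpWT mice in place of 1.89. Median Xist was 0.69 CPM in CL and 326 CPM in UUO libraries of VeptpWT mice. In VeptpKO mice the medians were 326 CPM in CL and 21.2 CPM in UUO libraries. In both genotypes the kidneys compared thus differed in this RNA of female cells. Of 4 hepatocyte markers tested in IgG mice, 2 were lower in UUO kidneys and 2 did not pass, with a median log2 fold change of 0.34, and their summed level had a median of 453 CPM in CL and 196 CPM in UUO kidneys. Their part in the level of Trf was not tested.

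Slc40a1 (chr1:45908068-45926523, minus strand), the only known exporter of ferrous iron from cells, was higher in UUO kidneys of IgG and PdgfbWT mice. In IgG mice it ranged from 31.0 to 100.5 CPM (median 44.8) in CL and from 43.3 to 153 CPM (median 84.6) in UUO kidneys, and these ranges overlapped. Among libraries without a separator they did not overlap, at 31.0 to 43.29 CPM in CL and 43.34 to 85.7 CPM in UUO kidneys, although the nearest values almost touched. The log2 fold change was 0.80 ± 0.27 (SE, adjusted p = 0.0188), with an adjusted p of up to 0.0745 without CL replicate 3 or UUO replicate 6. In VeptpWT mice the log2 difference was 0.77 ± 0.29 (SE, adjusted p = 0.0633), and 0.77 (adjusted p = 0.0045) after adjustment for the form of name. With ABTAA it was 0.61 ± 0.28 (SE, adjusted p = 0.110). With ABTAA, libraries of the same number in the 2 kidneys deviated together, and with these pairs as a replicate block, together with the form of name, 5 of the 10 genes passed in place of 3, adding Slc40a1 at 0.58 (adjusted p = 0.00653) and Mt2 at 1.13 (adjusted p = 0.00029). How the share of all genes moved with this block is not given here.

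Mt2 (chr8:94172664-94173568, plus strand) was counted in small numbers, between 2 and 250 counts per library. In IgG mice it ranged from 3.86 to 53.3 CPM (median 27.6) in CL and from 14.6 to 128.5 CPM (median 57.0) in UUO kidneys. Most of this width followed the form of library name. Without a separator the IgG libraries ranged from 32.0 to 53.3 CPM in CL and from 72.1 to 128.5 CPM in UUO kidneys, with no overlap, and with a separator from 3.86 to 23.3 CPM and from 14.6 to 42.0 CPM. The log2 fold change over both forms was 1.20 ± 0.45 (SE, adjusted p = 0.0369), and the omission of IgG CL replicate 5, 6, 7, or 8 or of IgG UUO replicate 1, 2, 3, or 4 took the adjusted p to as much as 0.104. By edgeR the call was also lost with the compared groups alone (1.22, adjusted p = 0.0516) and with all 12 groups in 1 fit (1.17, adjusted p = 0.129). Libraries with a separator alone did not pass either (1.02, adjusted p = 0.0995), and the call held under the other alternatives. With the form as a covariate it was 1.14 (adjusted p = 0.000446) in IgG, 1.17 (adjusted p = 0.000301) with ABTAA, and 1.402 (adjusted p = 6.60e-05) in VeptpWT mice, where the values without the covariate were 1.13 ± 0.44 (SE, adjusted p = 0.0573) with ABTAA and 1.89 ± 0.80 (SE, adjusted p = 0.101) in VeptpWT mice. In VeptpKO mice the log2 difference was 1.21 ± 0.88 (SE, adjusted p = 0.503) without and 0.78 (adjusted p = 0.0501) with the covariate.

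The counts of Mt2 cannot be separated from those of an antisense gene. Gm45774 (chr8:94170748-94173412, minus strand) covers 432 of the 588 exonic bases of Mt2, and the sources used here do not state whether counting used strand. Over all libraries Mt2 had 2880 counts and Gm45774 had 2796, the counts were equal in 29 of 75 libraries, and they differed by at most 6 in the others. The values of Mt2 may thus belong to either strand. Likewise, reads of Ftl1 may be shared with its copy Ftl1-ps1, which has a row of its own in the table.

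Mt1 (chr8:94179082-94180327, plus strand), the neighbour of Mt2, did not pass the test in any of the 15 comparisons. In IgG mice it ranged from 42.7 to 310.1 CPM (median 186) in CL and from 37.1 to 295 CPM (median 139.6) in UUO kidneys, a log2 difference of -0.09 ± 0.41 (SE, adjusted p = 0.900). In PdgfbWT mice, whose libraries shared 1 form of name, the values were 114, 340, 238, and 224 CPM in CL and 239.5, 233, 244, and 276 CPM in UUO kidneys, and the log2 difference was 0.13 ± 0.24 (SE, adjusted p = 0.707). The neighbouring Mt2 rose in the same PdgfbWT libraries, as given below. The difference between the 2 genes' changes was not tested.

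The genes of storage, endosomal transport, and sensing passed the test in fewer comparisons than Cp, Tfrc, Trf, Slc40a1, and Mt2. Fth1 (chr19:9980598-9985098, plus strand) and Ftl1 (chr7:45457944-45459884, minus strand) showed log2 differences between -0.30 and 0.20 in the UUO kidneys of IgG, ABTAA, VeptpWT, and VeptpKO mice, none of which passed the test, and were lower in UUO kidneys of PdgfbWT mice. Slc11a2 (chr15:100387898-100425072, minus strand) had log2 differences between -0.41 and -0.18 in the same 4 groups of mice. With the form of name as a covariate it was lower in VeptpWT UUO kidneys, at -0.35 (adjusted p = 0.0280). Ireb2 (chr9:54863789-54912530, plus strand), which encodes the iron sensor IRP2, had group medians between 45.9 and 68.1 CPM over all 12 groups and log2 differences between UUO and CL kidneys from -0.21 to 0.06.

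**Figure D2:**
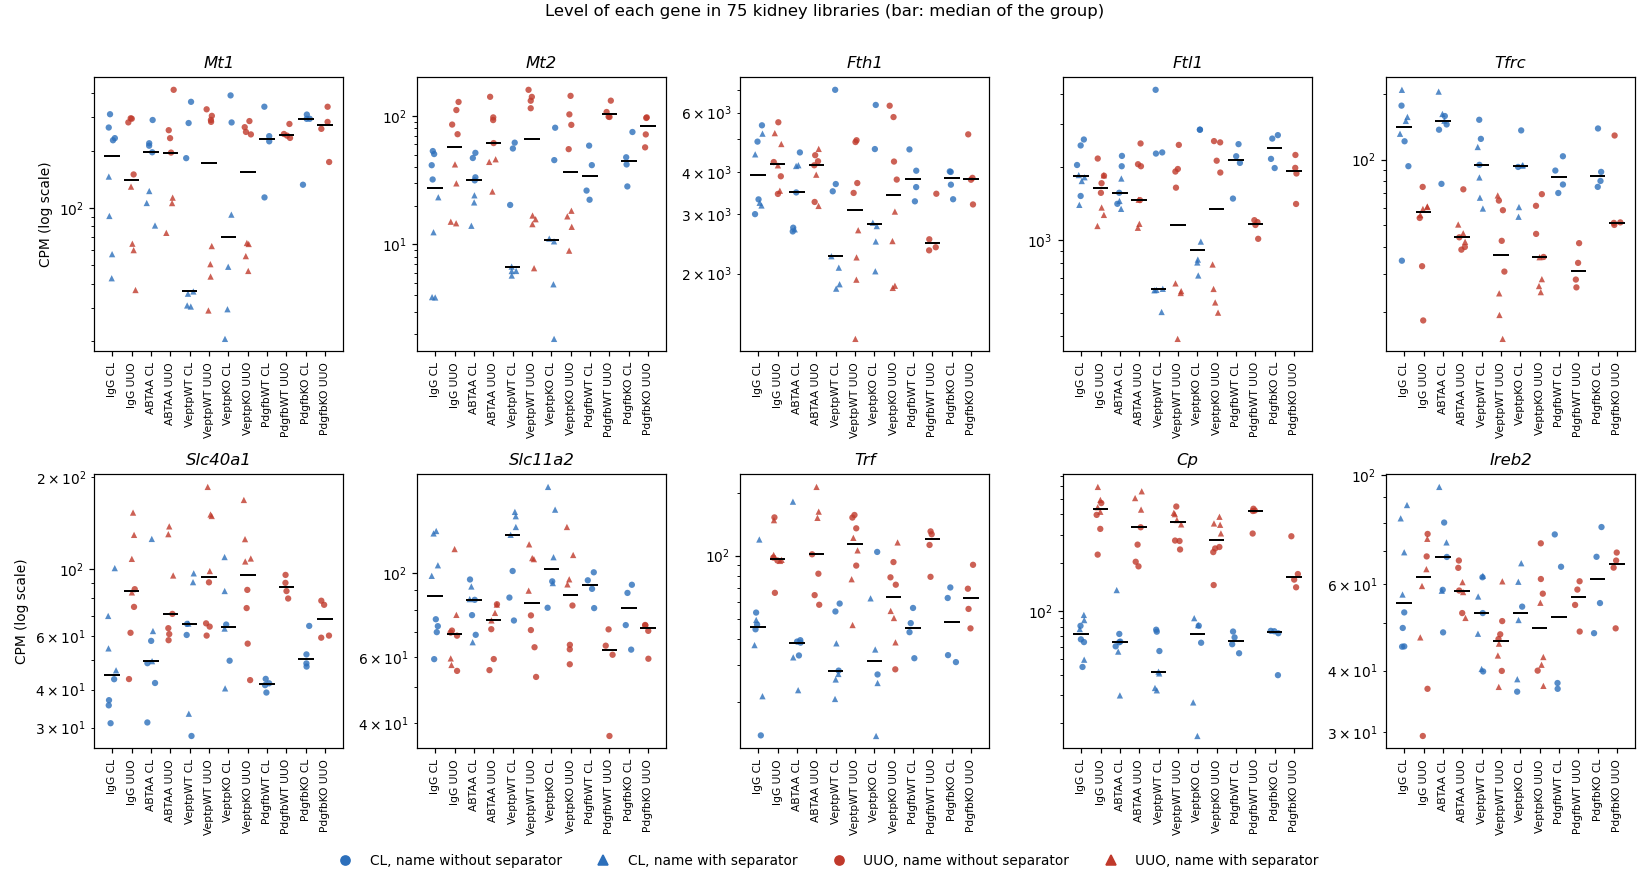
Level of each of the 10 genes in CPM (vertical log scale) in every library of the 12 groups (horizontal axis), with CL libraries in blue, UUO libraries in red, circles for library names without and triangles for names with a separator, and a bar at the group median. The Cp values of UUO kidneys stand above all CL values of the same mice, while the Mt1 and Mt2 values of the Veptp arm split by the form of name, with Mt1 at 20.5 to 92.2 CPM in triangles and 182 to 389 CPM in circles.

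TIE2 activation, by ABTAA or by endothelial loss of Veptp, was compared with its controls to ask whether it alters these genes in injured or uninjured kidneys. None of the 10 genes passed the test between ABTAA and IgG mice in UUO or in CL kidneys, and none differed in its response to UUO, with 0.0% of all genes tested passing in each of these comparisons. In UUO kidneys the log2 differences ranged from -0.25 ± 0.23 (SE) for Cp to 0.30 ± 0.42 (SE) for Mt1, and no gene had an unadjusted p under 0.05. Trf ranged from 58.2 to 213 CPM (median 102) in ABTAA UUO and from 66.4 to 152.5 CPM (median 96.7) in IgG UUO kidneys, so the ranges overlapped. Among libraries with a separator, 3 ABTAA and 4 IgG, they did not overlap for Trf (152 to 213 CPM with ABTAA, 94.4 to 148 CPM with IgG) or for Tfrc (42.0 to 50.4 CPM with ABTAA, 55.7 to 61.0 CPM with IgG), while those without a separator overlapped for both. Among all genes tested, 5.47% did not overlap between these 3 and 4 libraries, and the other 8 of the 10 genes overlapped. These standard errors leave room for differences of either sign. No gene had an unadjusted p under 0.05 in CL kidneys or in the response either, and DESeq2 called 0 in all 3 comparisons. None passed between VeptpKO and VeptpWT mice either, in UUO or CL kidneys or in the response to UUO, where again 0.0% of all genes passed. The largest log2 difference between the UUO kidneys of the Veptp arm was that of Trf, -0.72 ± 0.32 (SE, unadjusted p = 0.0306, adjusted p = 1.00 by edgeR), from 46.5 to 157 CPM (median 114) in VeptpWT to 28.6 to 116 CPM (median 63.5) in VeptpKO libraries. Median Xist was 326 CPM in the VeptpWT and 21.2 CPM in the VeptpKO UUO libraries. With Xist as a covariate the Trf difference was -0.65 (unadjusted p = 0.00699, adjusted p = 0.999 by edgeR). Its difference in response to UUO was then -0.42 (unadjusted p = 0.253) in place of -0.97 (unadjusted p = 0.0569). Trf was the 1 gene with an unadjusted p under 0.05, with 0 in CL kidneys and in the response, and DESeq2 called 0 in all 3. Without the 8 libraries of opposite genotype, 0 genes passed in these comparisons.

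The Pdgfb arm was the 1 arm in which any of the 10 genes passed the test between the UUO kidneys of its genotypes or treatments. In UUO kidneys labelled PdgfbKO, Fth1, Ftl1, and Tfrc were higher and Trf and Cp lower than in those labelled PdgfbWT. This comparison and that of UUO with CL kidneys in PdgfbWT mice share the PdgfbWT UUO libraries. Between these UUO kidneys 3 of the 10 genes were higher and 2 lower, where 12.0% of all genes tested were higher and 6.58% lower. In CL kidneys none of the 10 passed (0.0% of all genes), with log2 differences from -0.21 to 0.39, 1 of which, that of Slc40a1, had an unadjusted p under 0.05 (0.39 ± 0.17, SE, unadjusted p = 0.0294, adjusted p = 1.00 by edgeR), and DESeq2 called 0. In a single fit over all 12 groups, 0 of the 10 genes passed between the UUO kidneys of this arm (adjusted p = 0.0681 for Cp and 0.0677 for Tfrc), and 4 (Tfrc, Slc40a1, Trf, and Cp) passed between UUO and CL kidneys of PdgfbWT mice. The share of all genes that passed in this fit is not given here. The response to UUO differed between the genotypes for 2 genes, Cp and Slc40a1, while 8.56% of all genes differed.

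Cp levels in the order of the replicates were 54.5, 68.5, 62.1, and 74.5 CPM in PdgfbWT CL and 423, 420.4, 304, and 434 CPM in PdgfbWT UUO kidneys. In PdgfbKO mice they were 39.8, 75.2, 72.7, and 74.8 CPM in CL and 141, 157, 170.1, and 293 CPM in UUO kidneys. All 4 PdgfbKO UUO libraries lay above the CL libraries and below the PdgfbWT UUO libraries. The change with UUO was 2.61 ± 0.21 (SE, adjusted p = 8.41e-10) in PdgfbWT and 1.59 ± 0.22 (SE, adjusted p = 4.99e-05) in PdgfbKO mice, and the difference between these responses was -1.03 ± 0.30 (SE, adjusted p = 0.0348). This last call did not survive the omission of 11 of the 16 libraries, taken singly, with adjusted p-values up to 0.109. Between the UUO kidneys, the log2 difference was -1.03 ± 0.19 (SE, adjusted p = 0.000394).

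Slc40a1 stood at 43.4, 39.1, 41.4, and 42.0 CPM in PdgfbWT CL and at 79.8, 89.9, 84.45, and 95.5 CPM in PdgfbWT UUO kidneys. In PdgfbKO mice it stood at 48.8, 47.65, 52.25, and 64.8 CPM in CL and at 60.3, 78.5, 76.1, and 59.3 CPM in UUO kidneys. The PdgfbWT groups did not overlap, whereas a PdgfbKO CL library lay among the PdgfbKO UUO libraries. The log2 fold change was 1.08 ± 0.15 (SE, adjusted p = 2.55e-06) in PdgfbWT mice, and the log2 difference was 0.35 ± 0.16 (SE, adjusted p = 0.206) in PdgfbKO mice. The difference between the responses was -0.72 ± 0.22 (SE, adjusted p = 0.0392), which failed on the omission of 10 of the 16 libraries, taken singly (adjusted p up to 0.148), with DESeq2 (adjusted p = 0.0605), without a low-count filter (adjusted p = 0.140), and with libraries thinned to the shallowest, where it was -0.35 (adjusted p = 0.593).

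Tfrc levels were 89.0, 76.9, 103.5, and 70.3 CPM in PdgfbWT CL and 33.7, 26.0, 41.4, and 28.25 CPM in PdgfbWT UUO kidneys, which gave a log2 change of -1.35 ± 0.26 (SE, adjusted p = 0.000186). In PdgfbKO mice they were 139, 87.8, 75.0, and 79.8 CPM in CL and 50.2, 51.6, 51.3, and 129 CPM in UUO kidneys. UUO replicate 4 stood apart from the other three PdgfbKO UUO libraries, which lay above all PdgfbWT UUO libraries and below all PdgfbKO CL libraries. The log2 difference with UUO was -0.38 ± 0.26 (SE, adjusted p = 0.444) in PdgfbKO mice, and without UUO replicate 4 Tfrc fell there too, at -0.91 (adjusted p = 0.0225). Between the UUO kidneys the log2 fold change was 1.16 ± 0.26 (SE, adjusted p = 0.00266), and without PdgfbKO UUO replicate 4 it was 0.63 (adjusted p = 0.0534).

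Both ferritin chains fell in PdgfbWT mice, and neither passed the test in PdgfbKO mice. Ftl1 was at 1482, 2486, 2080, and 2216 CPM in PdgfbWT CL and at 1207, 1153, 1011, and 1185 CPM in PdgfbWT UUO kidneys, without overlap, and fell with a log2 change of -0.85 ± 0.17 (SE, adjusted p = 0.000245). The PdgfbKO UUO libraries, at 2243, 1881, 1984, and 1408 CPM, all lay above the PdgfbWT UUO libraries, by 0.71 ± 0.17 (SE, log2, adjusted p = 0.00387). In PdgfbKO mice the log2 differences with UUO were -0.33 ± 0.17 (SE, adjusted p = 0.273) for Ftl1 and 0.09 ± 0.17 (SE, adjusted p = 0.821) for Fth1. Fth1 showed the same order less clearly. It was at 3276, 4668, 3610, and 4037 CPM in PdgfbWT CL, at 3450, 2529, 2345, and 2395 CPM in PdgfbWT UUO, and at 5173, 3796, 3845, and 3207 CPM in PdgfbKO UUO kidneys, so that single libraries overlapped. Its change was -0.53 ± 0.17 (SE, adjusted p = 0.0190) with UUO in PdgfbWT mice and 0.57 ± 0.17 (SE, adjusted p = 0.0236) between the UUO kidneys, and each call failed without PdgfbWT UUO replicate 2, 3, or 4, the first also without PdgfbWT CL replicate 2 (adjusted p up to 0.0677) and the second without PdgfbKO UUO replicate 1 (adjusted p up to 0.0820). Without TMM scaling the median of all genes shifted by 0.373 with UUO in PdgfbWT mice and by -0.271 between the UUO kidneys, and Fth1 then had -0.15 (adjusted p = 0.359) and 0.27 (adjusted p = 0.132), and Ftl1 -0.46 (adjusted p = 0.00562) and 0.41 (adjusted p = 0.0229).

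Trf was at 32.3, 47.5, 56.2, and 43.0 CPM in PdgfbWT CL and at 79.2, 131, 112.5, and 127 CPM in PdgfbWT UUO kidneys, a change of 1.35 ± 0.23 (SE, adjusted p = 4.24e-05). The PdgfbKO UUO libraries, at 90.4, 44.85, 55.6, and 69.45 CPM, overlapped them in replicate 1 of each group. Between the UUO kidneys the log2 fold change was -0.86 ± 0.22 (SE, adjusted p = 0.00796), with an adjusted p of 0.0513 without PdgfbKO UUO replicate 2. Median Xist was 408 CPM in the PdgfbWT and 189 CPM in the PdgfbKO UUO libraries. With Xist as a covariate 0 of the single-gene calls were lost, and sex itself is not labelled. Mt2 was at 22.3, 58.7, 41.4, and 26.2 CPM in PdgfbWT CL and at 107, 98.15, 98.7, and 131.5 CPM in PdgfbWT UUO kidneys, without overlap, and rose by 1.59 ± 0.25 (SE, log2, adjusted p = 1.17e-05). In PdgfbKO mice it was at 28.25, 47.65, 75.0, and 41.9 CPM in CL and at 56.9, 96.4, 97.5, and 71.8 CPM in UUO kidneys, a change of 0.86 ± 0.26 (SE, adjusted p = 0.0488) that failed on the omission of 12 of the 16 libraries, taken singly (adjusted p up to 0.149). Slc11a2 fell in PdgfbWT mice, from 95.7, 90.8, 100.5, and 80.8 CPM in CL to 64.2, 70.95, 60.8, and 37.0 CPM in UUO kidneys (-0.62 ± 0.17, SE, adjusted p = 0.00436), and without TMM scaling it had -0.25 (adjusted p = 0.242).

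**Figure D3:**
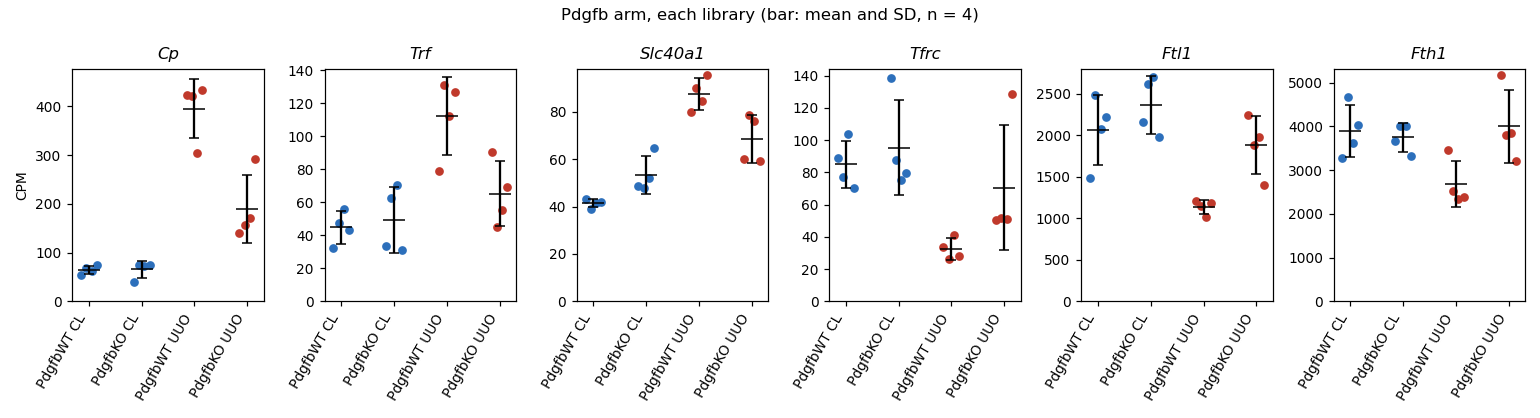
Level in CPM (vertical axes from 0) of 6 genes in the 16 libraries of the Pdgfb arm, with CL libraries in blue, UUO libraries in red, and bars for the mean and SD of 4 libraries. In PdgfbKO UUO kidneys Cp lay at 141 to 293 CPM against 304 to 434 CPM in PdgfbWT UUO kidneys, and Ftl1 at 1408 to 2243 CPM against 1011 to 1207 CPM.

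Cell-type markers moved with these results. The summed macrophage markers were at 131 to 232 CPM in IgG CL and 436 to 933 CPM in IgG UUO kidneys, and 8 of their 8 genes passed the test upward, while 5 of 8 epithelial and 3 of 4 red blood cell markers were lower. In the Pdgfb arm the macrophage markers were at 501 to 773 CPM in PdgfbWT UUO and 378 to 425 CPM in PdgfbKO UUO kidneys, and 4 of 8 were lower in the knockout. The epithelial markers were at 3134 to 3817 CPM in PdgfbWT UUO and 5124 to 8290 CPM in PdgfbKO UUO kidneys, and 5 of 8 were higher in the knockout. Red blood cell markers were at 317 to 421 CPM and 564 to 835 CPM, and hepatocyte markers at 108 to 166 CPM and 267 to 629 CPM, in the same 2 groups. Adipocyte markers reached 351 CPM in single libraries, and neutrophil markers stayed at or under 98.2 CPM in all of them. In whole kidneys fewer cells of a type and less RNA per cell cannot be told apart, and the part of these cell types in the changes of the 10 genes was not tested.

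The metallothioneins and Ftl1 differed with the form of library name in both arms that had 2 forms. Mt1 was lower in libraries with a separator, at 30.4 to 36.4 CPM against 182 to 360.3 CPM in VeptpWT CL kidneys and at 42.7 to 146 CPM against 226 to 310.1 CPM in IgG CL kidneys, without overlap. The log2 difference, with minus without separator, was -2.64 ± 0.14 (SE) in the Veptp and -1.49 ± 0.15 (SE) in the ABTAA arm for Mt1, and -2.93 and -1.54 for Mt2. Ftl1 followed at -1.91 and -0.38, and Fth1 was lower in the Veptp arm, at -1.11, with 0.05 ± 0.12 (SE, adjusted p = 0.794) in the ABTAA arm. Slc40a1 was higher in libraries with a separator, at 0.70 and 0.89, and Slc11a2 at 0.68 and 0.32. Trf was lower in the Veptp arm (-0.60) and higher in the ABTAA arm (0.74), Tfrc was lower in the Veptp arm (-0.66, adjusted p = 0.00236), and Cp was higher in the ABTAA arm (0.50, adjusted p = 0.00443). Apart from Fth1 in the ABTAA arm, all of these passed the test, as did 56.6% of all genes in the Veptp and 38.8% in the ABTAA arm. Genes whose longest transcript was under 1000 bases had a median difference of -1.10 in the Veptp and -0.57 in the ABTAA arm, and Mt2 and Ftl1 fall in this class. In the order of the Veptp and the ABTAA arm, the medians were 0.00348 and -0.10 in the next longer class, where Mt1 falls, 0.29 and 0.06 in the one after, where Fth1 falls, and 0.06 and 0.08 for genes of 4000 bases or more. These classes follow the longest annotated transcript of a gene, which need not be the one expressed in kidney. None of the 10 genes passed the edgeR test of a difference between the forms in the response to UUO, with adjusted p-values of at least 0.149. For Cp the response was larger with a separator in both arms. The log2 difference was 1.20 ± 0.34 (SE, adjusted p = 0.149) in the Veptp and 0.55 ± 0.28 (SE, adjusted p = 0.548) in the ABTAA arm. What the form of name stands for is not given, and its part in these levels cannot be told apart from whatever else the 2 sets of libraries differ in.

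**Figure D4:**
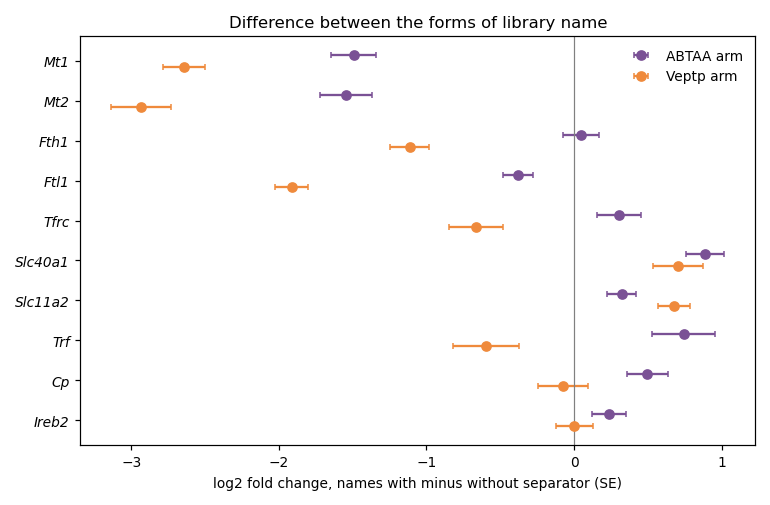
Log2 difference between libraries whose names had and lacked the separator (horizontal axis, with standard error) for the 10 genes (vertical axis) in the ABTAA arm (purple) and the Veptp arm (orange). Mt1 and Mt2 lie furthest to the left in both arms, at -2.64 and -2.93 in the Veptp and -1.49 and -1.54 in the ABTAA arm, and Slc40a1 lies to the right in both.

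The genes whose levels followed each of the 10 genes most closely were found after the mean of each group within each form of name had been taken off, over 75 libraries and among 7840 genes. Pearson's r is given as a description, since libraries share depth and, in part, a mouse. Apart from Gm45774 (r = 0.986 with Mt2), Mt1 and Mt2 were closest to each other, with r = 0.695, and Mt1 was next most like Rpl38 (0.684). Fth1 was most like Tmem176b (0.904), Cd63 (0.886), and Tmem176a (0.858), and Ftl1 most like Gpx3 (0.893), Aldoa (0.841), and Cd63 (0.826), with r = 0.767 between the ferritin chains themselves. Tfrc was most like Msmo1 (0.631), an enzyme of cholesterol synthesis, and Cp most like the interferon-induced Gbp3 (0.703) and the actin-capping gene Capg (0.669). Trf was most like Gc (0.761), the vitamin D-binding protein. It was then most like Tsix (0.701), the antisense gene of Xist, and Xist (0.695), which is expressed in female cells. Slc40a1, Slc11a2, and Ireb2 had no gene above r = 0.667, the highest being Gm16010, Afmid (0.534), and Acad11 (0.625).

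Beyond these 10 genes, 87 other genes of metal, iron, and heme handling were followed as a fixed list. Of the 67 tested in IgG mice, 10 were higher and 23 lower in UUO kidneys, of the 71 in VeptpWT mice 8 were higher and 12 lower, and of the 69 in PdgfbWT mice 9 were higher and 22 lower. The shares over all genes given above were 16.3% higher and 18.2% lower in IgG, 10.0% and 8.38% in VeptpWT, and 17.9% and 19.4% in PdgfbWT mice, so the counts of higher genes lay near or below those shares. The list's median log2 fold change was -0.23, -0.24, and -0.27 in these comparisons. In all 3 groups of control mice 5 genes of the list were higher and 8 lower, beside 7.73% and 7.92% of all genes. At most 67 genes of the list were tested in all 3, so the count of higher genes lay near its share. Lcn2, whose product binds iron-carrying siderophores and is a marker of tubular injury, rose most, by 5.09 ± 0.29 (SE, log2) in IgG, 4.72 ± 0.59 in VeptpWT, and 3.29 ± 0.39 in PdgfbWT mice. Steap1, of the metalloreductase family, rose by 1.78, 2.30, and 2.31, the zinc transporter gene Slc39a6 by 1.23 to 1.77, the copper transporter gene Slc31a2 by 0.83, 0.66, and 0.95, and Bmp6, which induces hepcidin in liver, by 1.08, 0.94, and 0.79. Hmox1, the heme-degrading enzyme, rose by 1.51 in IgG (adjusted p = 0.000534) and 1.06 in PdgfbWT mice (adjusted p = 0.00418), and had 1.11 (adjusted p = 0.112) in VeptpWT mice. Hp, the hemoglobin scavenger, rose by 3.08 in IgG and 3.75 in VeptpWT mice and did not pass the filter on low counts in the Pdgfb arm.

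Of the mitochondrial iron and iron-sulfur cluster genes, 6 of 10 tested fell in IgG, 5 of 12 in VeptpWT, and 6 of 12 in PdgfbWT mice, and none rose, where 18.2%, 8.38%, and 19.4% of all genes were lower. They included Nfs1, the cysteine desulfurase that supplies sulfur (-0.95 ± 0.125, -0.83 ± 0.15, and -0.91 ± 0.15, SE), and Fdx1, a ferredoxin (-1.29 ± 0.34, -1.07 ± 0.25, and -0.73 ± 0.21, SE). Of the heme genes, 9 of 17 fell and 2 rose in IgG, 2 of 17 fell and 1 rose in VeptpWT, and 9 of 16 fell and 1 rose in PdgfbWT mice, and the VeptpWT count lay near the share of all genes. Aco1, which encodes the other iron regulatory protein, IRP1, fell by 0.77 ± 0.12 (SE, log2) in IgG, by 0.63 ± 0.18 in VeptpWT, and by 0.84 ± 0.14 in PdgfbWT mice. Ireb2 passed the test in no comparison, and the difference between the changes of these genes was not tested. Ncoa4, the receptor that delivers ferritin for breakdown, fell by 1.02 in IgG and 0.91 in PdgfbWT mice and had -0.41 (adjusted p = 0.455) in VeptpWT mice. The metal sensor Mtf1 and the zinc exporter gene Slc30a1, classic partners of the metallothioneins, passed in none of the 3, with log2 differences from 0.01 to 0.43 and from -0.08 to 0.17. Mtf1 was higher in UUO kidneys with ABTAA, by 0.74 ± 0.26 (SE, adjusted p = 0.0351).

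**Figure D5:**
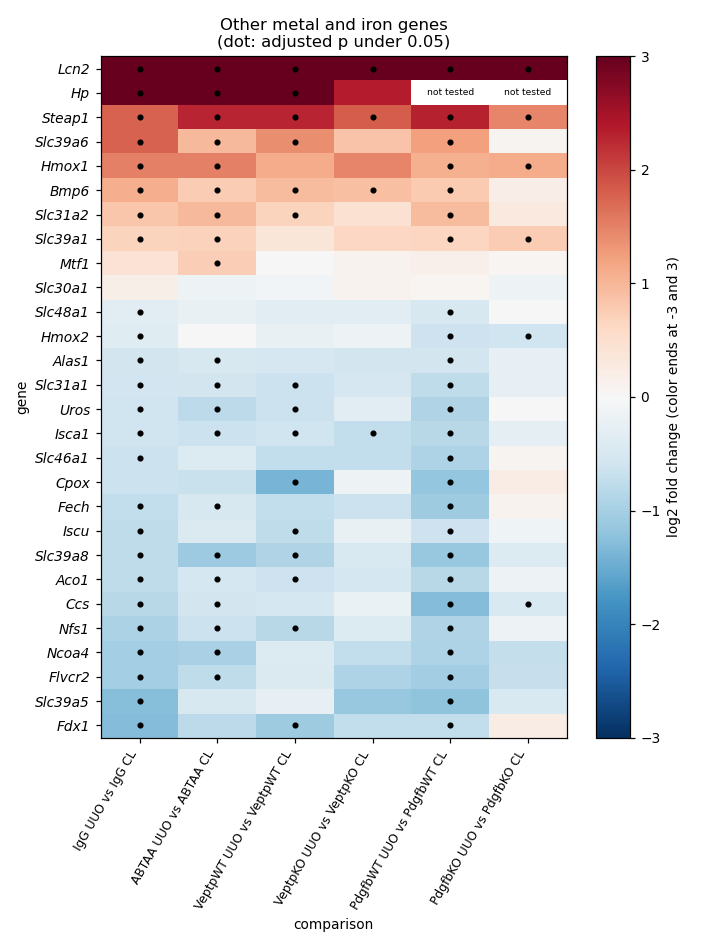
Log2 fold change between UUO and CL kidneys (color, ending at -3 and 3) of 28 other genes of metal and iron handling (vertical axis) in the 6 groups of mice (horizontal axis), with a dot where the adjusted p was under 0.05. Lcn2 carries a dot in all 6 columns, and most genes were shown because they passed the test in the columns of control mice.

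In PdgfbKO UUO kidneys 15 of the 69 tested genes of this list were higher and 4 lower than in PdgfbWT UUO kidneys, with a median of 0.25, where 12.0% of all genes were higher and 6.58% lower. The count of lower genes lay near its share, and so did the 6 of 69 whose response to UUO differed, beside 8.56% of all genes. Fech, the final enzyme of heme synthesis, was higher by 0.68 ± 0.15 (SE, adjusted p = 0.00213), Nfs1 by 0.68 ± 0.15 (SE, adjusted p = 0.00246), Fdx1 by 0.74 ± 0.20 (SE, adjusted p = 0.0121), and Aco1 by 0.55 ± 0.14 (SE, adjusted p = 0.00593). Slc39a6 was lower by 1.385 (adjusted p = 0.000711) and Bmp6 lower by 0.80 ± 0.20 (SE, adjusted p = 0.00522). Lcn2 had -0.88 ± 0.33 (SE, adjusted p = 0.0621).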

How the data were processed

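The authors deposited 1 table of raw counts per gene and library. RNA of whole kidneys was made into Smart-seq3 libraries in 4 wells per sample, whose reads were merged. Per the submitters' processing notes the tools were STAR 2.7.3a, UMI-tools 1.1.4, and featureCounts of Subread 1.4.6-p5 on mm10. The sources used here give neither annotation nor strand setting.

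The counts were tested with edgeR 4.0.16 in R 4.3.3 (TMM, filterByExpr by group, quasi-likelihood test) over the 4 groups of each arm, leaving 9579, 11916, and 10923 genes in the ABTAA, Veptp, and Pdgfb arms. Benjamini-Hochberg adjustment was made within each comparison, with a threshold of 0.05. The SE is the log2 fold change divided by the square root of F. CPM are counts scaled to a common TMM-adjusted library total, and the pseudocount for correlations was 1 CPM. All 10 members were named, and other metal and iron genes when called the same way in at least 2 of 3 control comparisons, besides Hmox1, Mtf1, Slc30a1, and Aco1. The members and lists were chosen with earlier results of these data known. The procedure was tested on simulated data. DESeq2 1.42.0, edgeR's exact test, other filters, and blocks were alternatives. In the ABTAA arm the 3 numbers shared by CL and UUO library names correlated after removal of group and form of name (r = 0.458, 0.243, and 0.201, against -0.019 for different numbers), and were taken as pairs. No 2 libraries of a group agreed within sampling noise (lowest chi-square per degree of freedom 1.54). Where labels do not tie libraries to mice, p-values measure the spread between libraries. Sequences are from RefSeq (GRCm38.p6) and the GENCODE genes of GRCm38. Protein sequences were not used here.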

Additional observations from a re-analysis of the deposited data

Results flagged for a closer look

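A library far from the others of its group was looked for in each gene and group of 4 to 10 libraries by Dixon's test at the 95% level, which chance passes in about 1 in 20 groups. Of 120 groups tested, 12 held such a library. ABTAA CL replicate 5 was the highest of its group for Trf (181.4 CPM, others 22.7 to 39.4), Cp (135.1 CPM, others 29.8 to 72.0), and Slc40a1 (125.4 CPM, others 31.2 to 62.4). PdgfbKO CL replicate 1 was the lowest for Mt1 (132.3 CPM, others 293 to 309) and Cp (39.81 CPM, others 72.7 to 75.2). PdgfbKO UUO replicate 4 was the highest for Tfrc (128.8 CPM, others 50.2 to 51.6). PdgfbWT UUO replicate 1 was the highest for Fth1 (3450 CPM, others 2345 to 2529), and replicate 3 the lowest for Cp (304.3 CPM, others 420.4 to 434). The other such values were Tfrc in ABTAA UUO (73.06 CPM, others 38.7 to 50.4), Slc11a2 in IgG UUO (115.8 CPM, others 55.1 to 77.5), Trf in IgG CL (119.5 CPM, others 13.8 to 53.4), and Fth1 in VeptpWT CL (7009 CPM, others 1806 to 3686), each the highest of its group.

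The response to UUO differed between PdgfbKO and PdgfbWT mice by the test of the difference for Slc40a1 (-0.7249 on the log2 scale, adjusted p = 0.0392) and Cp (-1.0266, adjusted p = 0.0348), and was smaller in PdgfbKO mice in both cases.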

How the results depend on the processing

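Over 37 single-gene results and their alternatives, 361 of 419 values stayed on the same side of the threshold, 30 lost and 28 gained the call, and 0 changed sign. The number of the 10 genes that changed with UUO moved from 3 to 5 with ABTAA without a low-count filter, with the form of name as a covariate, or with the replicate block together with the form. In VeptpWT mice it moved from 3 to 6 with the form as a covariate and to 5 with the replicate block together with the form or with all 12 groups in 1 fit. In VeptpKO mice it moved from 2 to 1 with libraries thinned to the shallowest or without the 8 libraries of opposite genotype (chosen after seeing the data), and to 0 with libraries without a separator alone, of which 2 are CL. With all 12 groups in 1 fit it moved from 8 to 4 in PdgfbWT mice, from 2 to 1 in PdgfbKO mice (also when thinned), and from 5 to 0 between their UUO kidneys. The response difference of the Pdgfb arm moved from 2 genes to 4 without a low-count filter (Slc40a1 lost; Fth1, Tfrc, and Trf gained), to 1 (Tfrc) when thinned, and to 0 with all 12 groups. The cause was not tested. Shares of all genes called under each alternative are not given here, so these moves are not shown to be particular to the 10 genes.

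Leaving out 1 library at a time gave 4 to 6 genes in IgG, 3 to 4 with ABTAA, 3 to 4 in VeptpWT, 1 to 2 in VeptpKO, 7 to 8 in PdgfbWT, and 1 to 2 in PdgfbKO mice, 4 to 5 between the UUO kidneys of the Pdgfb arm, 0 to 3 for its response difference, and 0 to 0 in the comparisons with none. In PdgfbKO mice 11 libraries, and for the response difference 15 of 16, moved the count by over 1.5 times. Without TMM scaling the split of higher against lower was 4 and 2 in place of 4 and 4 in PdgfbWT mice, and 2 and 4 in place of 3 and 2 between the UUO kidneys. The Veptp numbers were not taken as pairs, since 4 of 8 joined opposite genotypes and 1 pair had r = 0.095, and the fit with both the replicate block and the form called Mt2 and Slc40a1 in VeptpWT mice, as the form alone did, and Trf (0.87, adjusted p = 0.0211) in VeptpKO mice. No paired analysis was possible in the Pdgfb arm because the labels give its libraries no replicate number, and the digits in their names recur within a group. Counts of a few reads, such as Mt2 and Tfrc in shallow libraries, limit single levels.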
